A study of Arabidopsis thaliana with 18 samples.

Results

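The AT3G60164 to AT3G60176 tract is a stretch of densely methylated DNA on Arabidopsis chromosome 3, at chr3:22235451-22242050 (TAIR10). It was taken as all 131 deposited windows lying wholly between these positions, of 43887 windows in the whole table, with the 39 windows of the following 2000 bp as its flank. Each window is 100 bp long and starts 50 bp after the previous one. The members were chosen by their measured level in an earlier look at the same data: the bounds enclose the run of windows that were lower by at least 0.2 in epiRIL 150 than in Col-wt. So the low level of that epiRIL, and in part that of epiRIL 193, was used in the choice and is given here as a description with no test.

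The study sequenced bisulfite-treated genomic DNA of rosettes (aerial tissue) from plants 21 to 22 days old, counted from sowing and grown in long days (16 h light, 8 h dark). Its 9 lines were Col-wt, the wild type, then epiRILs 92, 150, 193 and 232, and finally epiHybrids 92, 150, 193 and 232, each with 2 libraries (18 in all). An epiRIL, or epigenetic recombinant inbred line, has nearly the DNA sequence of the wild type but inherited part of its chromosomes in a weakly methylated state. The best-known population of such lines owes this state to a mutant of DDM1, a chromatin remodeller. Each epiHybrid is the offspring of the epiRIL of the same number and, from the published study and the deposited mid-parent values, Col-wt. The deposited table holds 1 level per line, a fraction from 0 (no methylation) to 1 (full methylation), into which the authors had combined the libraries of a line, and hence replicate error is unknown for every value below. Whether separate plants gave the libraries of a line is not in the labels.

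In plants, cytosines are methylated in 3 sequence contexts. CG methylation is copied after replication by a maintenance enzyme, CHG methylation is kept up in a loop with histone marks, and CHH methylation has to be set anew, in part by a pathway guided by small RNAs. Transposons and pseudogenes usually carry all of these marks, and loss of DDM1 function is known to remove them over long stretches that can then be inherited through many generations. The table gives all contexts as 1 value, so a level near 0.37, as found here in Col-wt, does not say which contexts were methylated.

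The genes of the tract differ in kind. AT3G60164 (22232023 to 22237075) is annotated as a transcribed pseudogene and AT3G60170 (22232512 to 22236531), which lies inside it, as a pseudogene. The table starts at 22235451, so only the last 1625 bp of AT3G60164 and the last 1081 bp of AT3G60170 were measured, and where the methylated stretch begins could not be seen. AT3G60176 (22240155 to 22241164) is a gene for a non-coding RNA of 1010 bp and lies wholly in the tract. The remaining 3965 bp have no annotated gene, namely 3079 bp between AT3G60164 and AT3G60176 and 886 bp after AT3G60176. The protein-coding gene AT3G60180 (22242500 to 22244125) begins 449 bp after the tract end and fills most of the flank. Strand is not given in the annotation used here.

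Most windows of the tract had a level for many cytosines, and 123 of the 131 had at least 10 in every line. The median number of cytosines with a level was 39 to 42 per window in the 9 lines, and 1 of the 131 windows (22237351 to 22237450) had none in epiRIL 193. Every second window, so that none overlap, with a level in all 9 lines gave the 65 windows used below. Read depth is unknown, so no counting interval can be given.

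Col-wt was methylated from end to end. Its mean level over the 65 windows was 0.368 ± 0.0726 (SD over windows, which shows how the level varies along the tract and is not an error between plants). The lowest window read 0.242, the median 0.363 and the highest 0.553, so no window fell under 0.2. EpiRIL 92 kept this state, with a mean of 0.378 (lowest 0.216, median 0.364, highest 0.579), and so did epiHybrid 92, with a mean of 0.386 (lowest 0.222, median 0.372, highest 0.564). Window by window, epiRIL 92 differed from Col-wt by a root mean square of 0.0486 and epiHybrid 92 by 0.0411, with 1 and 0 of 65 windows differing by 0.1 or more. Differences of single windows from Col-wt spanned -0.156 to 0.0927 in epiRIL 92 and -0.0990 to 0.0966 in epiHybrid 92. These columns show how far single windows differ between lines that both hold the methylated state.

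The peaks and dips along the tract recurred in those lines. Across the 65 windows the level in Col-wt had a Pearson correlation of 0.815 with epiRIL 92 (Spearman 0.788) and of 0.872 with epiHybrid 92 (Spearman 0.849). These values are given as a description: windows are neighbours, and levels in all lines share the base composition of the window. The number of cytosines in a window, taken from epiRIL 92, had a Pearson correlation of 0.288 with the level in epiRIL 92 (Spearman 0.341) and of 0.0726 with the level in Col-wt (Spearman 0.161). Among all 123 windows of the tract with at least 10 cytosines in every line, overlapping ones included, the highest in Col-wt, epiRIL 92 and epiHybrid 92 alike was 22236801 to 22236900, in the end of AT3G60164, at 0.576, 0.601 and 0.575.

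EpiRILs 150, 193 and 232 had lost nearly all methylation of the tract. Their mean levels were 0.0143, 0.0309 and 0.0356 in this order, or 3.89, 8.40 and 9.66% of the Col-wt level. Medians were lower still, at 0.00437, 0.00590 and 0.00467. For scale, the median over 15675 weakly methylated windows of the whole table (mean under 0.02 over the 9 lines) was 0.00325, 0.00327 and 0.00290 in the same epiRILs, so a typical window of the tract read little above the unmethylated background.

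Of the 65 windows, epiRIL 150 was lower than Col-wt by at least 0.2 in 65, epiRIL 193 in 62, epiRIL 232 in 59 and epiRIL 92 in 0. Such windows made up 2.28, 2.62, 3.33 and 0.525% of the whole table in the same order, and 33.8, 38.9, 49.5 and 7.79% of the windows that were methylated in Col-wt (0.2 or more). The count for epiRIL 150 is fixed by the choice of the tract, and that for epiRIL 193 is not independent of it. No window of the tract was higher than Col-wt by 0.2 in any of the 4 epiRILs; such windows were 0.209, 0.214, 0.163 and 0.194% of the table in epiRILs 92, 150, 193 and 232.

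**Figure D1:**
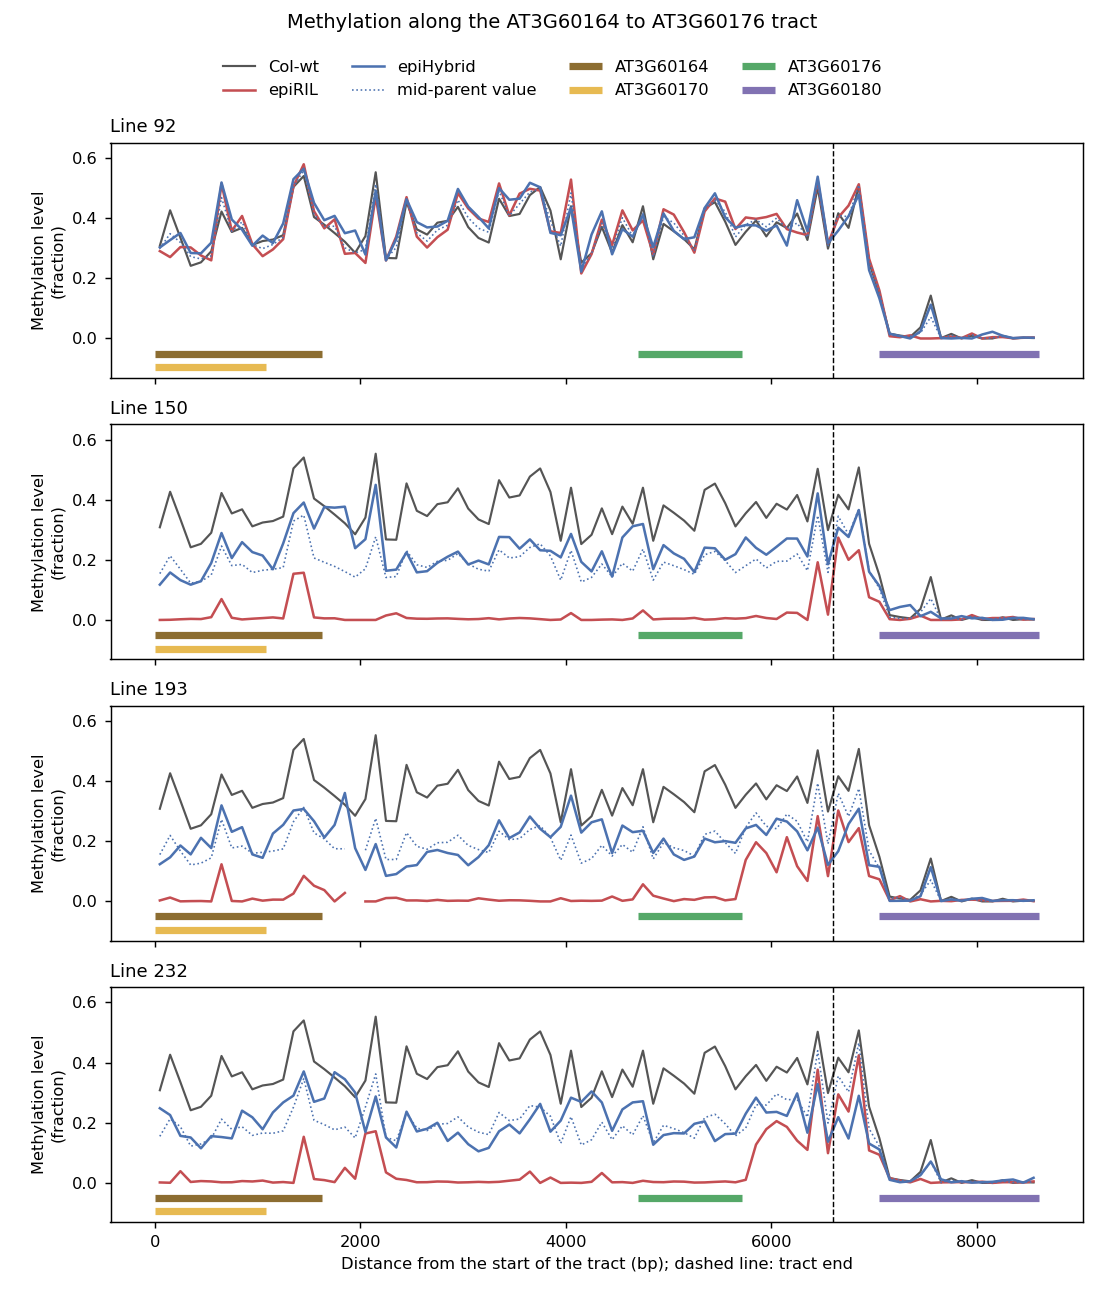
Methylation level (fraction, vertical axis) against the distance from the tract start in bp, for windows of 100 bp that do not overlap, 1 panel per line; grey is Col-wt (the same in every panel), red the epiRIL, blue the epiHybrid and dotted blue the mean of Col-wt and the epiRIL, with bars for the genes. In line 92 the curves lie together, and in lines 150, 193 and 232 the epiRIL runs near 0 over most of the tract with the epiHybrid between it and Col-wt.

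The loss covered each gene of the tract, to differing depth. In the measured end of AT3G60170 (10 windows) Col-wt and epiRILs 92, 150, 193 and 232 had mean levels of 0.331, 0.330, 0.0101, 0.0153 and 0.00701. The 16 windows of AT3G60164 read 0.360, 0.357, 0.0275, 0.0207 and 0.0155 in the same order. The 29 windows between AT3G60164 and AT3G60176, which have no annotated gene, read 0.372, 0.384, 0.00467, 0.00498 and 0.0203. In each of these stretches the 3 epiRILs with the loss held at most 7.64% of the Col-wt level.

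AT3G60176, the non-coding RNA gene, held the lowest share of the Col-wt level of these stretches in epiRILs 150 and 232, while in epiRIL 193 the stretch without a gene was lower. Over its 9 windows Col-wt and epiRIL 92 averaged 0.357 and 0.385, against 0.00382, 0.00911 and 0.00300 in epiRILs 150, 193 and 232, that is 1.07, 2.55 and 0.839% of Col-wt. The highest single window was 0.00682, 0.0191 and 0.00485 in those epiRILs, and the lowest window of Col-wt was 0.263. For epiRIL 150, and in part for epiRIL 193, this gap follows from the choice of the tract. With the mean level of weakly methylated windows subtracted from each line, epiRILs 150, 193 and 232 stood at -0.00183, 0.00373 and -0.00168 over this gene. EpiRILs 150 and 232 were thus below the mean of their own weakly methylated windows. They were slightly above the median of those windows, which was 0.00325 and 0.00290.

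**Figure D2:**
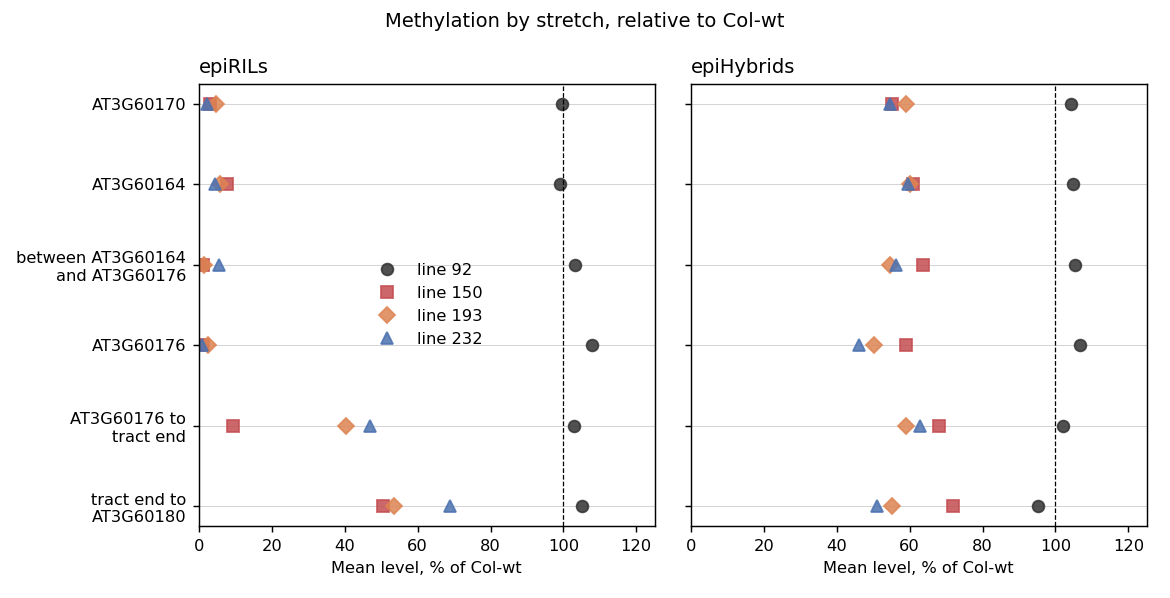
Mean level as a percentage of Col-wt (horizontal axis) in stretches of the tract and up to AT3G60180 (vertical axis), for the epiRILs on the left and the epiHybrids on the right; each symbol is 1 line and the dashed line marks 100%. EpiRILs 150, 193 and 232 lie under 10% until AT3G60176 has ended, after which epiRILs 193 and 232 stand at 40.3 and 47.0%.

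A few places inside the tract kept some methylation. The end of AT3G60164, at 22236751 to 22236950, held 0.155 in epiRIL 150 (2 windows), 0.0556 in epiRIL 193 and 0.0766 in epiRIL 232, at the place where Col-wt itself was among its highest (0.522). EpiRIL 232 alone held methylation at 22237451 to 22237650, with 0.168 against 0 in both epiRIL 150 and epiRIL 193 and 0.447 in Col-wt, on windows with as few as 18 cytosines. In epiRIL 193, the window 22236051 to 22236150, in AT3G60170, read 0.123, where epiRIL 150 read 0.0694 and epiRIL 232 0.00198. These windows were singled out by their level in the epiRILs, with a limit of 0.1.

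The 3 epiRILs differed most at the end of the tract. Joined runs of lower windows were followed from the first window of the table. They ended at 22242050 in epiRIL 150, at 22241250 in epiRIL 193 and at 22237350 in epiRIL 232. In epiRIL 193 a further run of 5 windows went from 22241451 to 22242050, the same end as in epiRIL 150. In epiRIL 232 the short methylated place just named breaks the run, and the next run went on from 22237551 to 22241350. A last run of 2 windows in epiRIL 232 went from 22241651 to 22241850. Over the 8 windows from 22241251 to 22242050, after AT3G60176, Col-wt and epiRILs 92, 150, 193 and 232 averaged 0.379, 0.390, 0.0350, 0.153 and 0.178. EpiRILs 193 and 232 thus held 40.3 and 47.0% of the Col-wt level here, and epiRIL 150 held 9.25%. The lowest window of epiRIL 193 in this stretch was 0.0682 and that of epiRIL 232 0.0989, whereas the median window of epiRIL 150 read 0.0154. Without these windows, the mean of epiRIL 193 over the tract was 0.0139 and that of epiRIL 232 was 0.0156, close to 0.0114 in epiRIL 150, so most of the difference between the 3 epiRILs lay in this stretch. The stretch starts where the first run of epiRIL 193 ended and stops where that of epiRIL 150 ended. The gap between these epiRILs here thus follows in part from how the stretch was set, which did not use epiRIL 232. With 1 column per line, the difference was not tested.

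The bound of the tract is the end of a joined run of lower windows, and not the end of methylation or of all loss. Just inside it, at 22241951 to 22242050, epiRIL 150 was lower than Col-wt by 0.281 (0.0177 against 0.299), and epiRIL 193 by 0.215. Just outside, at 22242051 to 22242150, the differences were -0.143 and -0.114, since epiRIL 150 read 0.274 and epiRIL 193 read 0.302 there, with 0.416 in Col-wt. Further out, at 22242251 to 22242350, the differences of epiRILs 150 and 193 were -0.275 and -0.263, again past the limit of 0.2. EpiRIL 232, which the choice did not use, read 0.0989 in the window just inside the bound and 0.294 in the window just outside. At 22241851 to 22241950, further inside, it read 0.377, with 0.503 in Col-wt. From 22241851 to 22242150 the differences of epiRIL 232 from Col-wt were -0.126, -0.200 and -0.122, so they rose and fell around the bound. Further inside, from 22241651 to 22241850, they were -0.275 and -0.218. Further outside, from 22242151 to 22242450, they were -0.131, -0.0827 and -0.145. Its loss was thus mostly smaller outside the bound, with no clear step at it.

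Methylation in Col-wt ran on past the tract end and stopped at AT3G60180. In the 4 windows between the tract end and this gene, Col-wt and epiRIL 92 averaged 0.386 and 0.406, against 0.195, 0.207 and 0.266 in epiRILs 150, 193 and 232. These 3 epiRILs had 50.6, 53.6 and 68.9% of the Col-wt level in this stretch, between the depleted tract and full methylation. The last window at 0.2 or more ended at position 22242500 in Col-wt, epiRIL 92, epiHybrid 92 and epiHybrid 232, and at 22242400 in the other 5 lines, while AT3G60180 starts at 22242500. Within AT3G60180, the 15 windows of the flank had a median of 0.00524 in Col-wt and of 0.00208 to 0.00694 in the other lines, which is the range of unmethylated DNA.

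One window in AT3G60180 stood out from that low level, and was picked after its values were seen. At 22242951 to 22243050, Col-wt read 0.143 and epiRILs 92, 150, 193 and 232 each read 0, while epiHybrids 92, 150, 193 and 232 read 0.112, 0.0273, 0.114 and 0.0711. The Col-wt value rests on 20 cytosines, and the lowest number in any line was 17. EpiRIL 92, which followed Col-wt through the tract, thus read like the other epiRILs there.

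**Figure D3:**
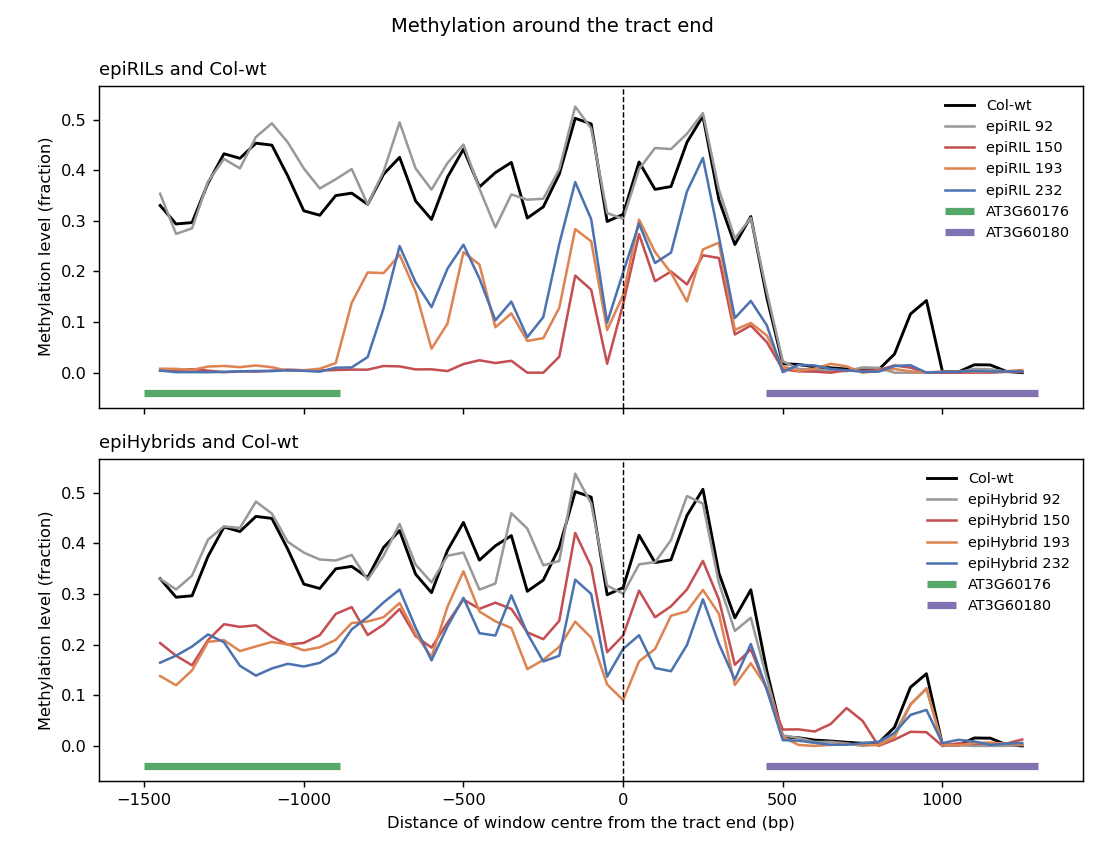
Methylation level (fraction, vertical axis) of overlapping 100 bp windows by the distance of their centre from the tract end in bp (dashed line at 0), for the epiRILs above and the epiHybrids below, each with Col-wt in black; bars mark AT3G60176 and AT3G60180. EpiRILs 193 and 232 rise from near 0 just after AT3G60176, epiRIL 150 rises only near the tract end, and all lines reach the low level at the start of AT3G60180.

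The epiHybrids were set between their parents to ask how much of the lost methylation a cross with the wild type carries. EpiHybrids 150, 193 and 232 had mean levels of 0.235, 0.207 and 0.210 over the tract, or 63.9, 56.1 and 57.1% of Col-wt. The lowest, median and highest windows were 0.117, 0.226 and 0.449 in epiHybrid 150, then 0.0849, 0.211 and 0.361 in epiHybrid 193, and 0.105, 0.20 and 0.371 in epiHybrid 232. Methylation was therefore present along the whole tract in each of them, and 44, 36 and 33 of their 65 windows were at 0.2 or more. Of these windows, which do not overlap, only epiHybrid 193 had any under 0.1 (2 of 65). Among the offset windows, epiHybrid 150 also fell under 0.1, with 0.0859 at 22235701 to 22235800.

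Each epiHybrid read above the mean of its parents, the mid-parent value, when averaged over the tract. In lines 92, 150, 193 and 232 the difference was 0.0128, 0.0439, 0.00695 and 0.00824, with a mean of 0.0180 ± 0.0175 (SD, n = 4 lines) and 4 of 4 lines above 0. The exact two-sided sign-flip permutation test over the 4 lines gave p = 0.125, the smallest value 4 lines allow, which is above 0.05. The lines share Col-wt and are not independent. Col-wt and epiRIL 150, which set the bounds of the tract, and epiRIL 193, in part used, also enter the mid-parent values. The test is thus not free of the choice of the tract, and no conclusion is drawn from it. Line 150 held most of the difference: without it the mean over the other lines was 0.00932, so the size rests on that line.

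On a scale from 0 at the Col-wt level through 0.5 at the mid-parent value to 1 at the epiRIL level, the position of the epiHybrid was 0.376 in line 150, 0.479 in line 193 and 0.475 in line 232. It is not given for line 92, whose parents hardly differ here. EpiHybrid 150 thus lay nearer to Col-wt, and epiHybrids 193 and 232 lay close to the mid-parent value. Window by window, epiHybrid 150 was above the mid-parent value in 54 of 65 windows, epiHybrid 193 in 33 and epiHybrid 232 in 33. The epiHybrids exceeded their epiRILs by 0.145 ± 0.0938 on average (SD, n = 4 lines), in 4 of 4 lines. The epiRIL columns took part in the choice of the tract, so this difference is a description, with no test.

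Windows at least 0.1 above the mid-parent value numbered 0, 5, 5 and 5 of 65 in lines 92, 150, 193 and 232, and those at least 0.1 below it 0, 0, 2 and 1. Of all windows in the table, 0.984, 1.08, 1.09 and 0.811% were above by that much and 0.403, 0.393, 0.398 and 0.469% below. Among windows methylated in Col-wt, those of the tract included, the shares above were 9.30, 9.61, 9.91 and 6.28%, against 0, 7.69, 7.69 and 7.69% in the tract. The share in the tract was thus lower in lines 92, 150 and 193 and higher in line 232, and these differences were not tested. Windows at least 0.2 below Col-wt numbered 0, 8, 18 and 21 of 65 in epiHybrids 92, 150, 193 and 232, or 0, 12.3, 27.7 and 32.3% of the tract. Such windows made up 0.265, 0.459, 0.653 and 1.13% of the table, and 3.93, 6.81, 9.68 and 16.7% of the windows methylated in Col-wt.

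The position of an epiHybrid varied along the tract. Over the measured end of AT3G60164 it was alike in the 3 lines, at 0.422 in line 150, 0.423 in line 193 and 0.424 in line 232. Over AT3G60176 the epiHybrids read 0.211, 0.179 and 0.165, with positions of 0.413, 0.510 and 0.543. Between these genes the positions were 0.368, 0.460 and 0.462. After AT3G60176, up to the tract end, they moved apart, with 0.353 in line 150 but 0.688 in line 193 and 0.699 in line 232.

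A short stretch just after AT3G60164 stood near the Col-wt level in epiHybrids 150 and 232, and less so in epiHybrid 193. In the 3 windows from 22237051 to 22237350, singled out after their values were seen, Col-wt read 0.350 and epiRILs 150, 193 and 232 read 0.00360, 0.0220 and 0.0206. EpiHybrid 150 read 0.375, epiHybrid 193 read 0.276 and epiHybrid 232 read 0.331, which is 107.2, 78.8 and 94.6% of Col-wt. The differences from the mid-parent value were 0.198, 0.0898 and 0.146. EpiHybrid 193 was uneven here, with 0.212 in the first window (mid-parent value 0.208) and 0.361 in the last. The lowest number of cytosines in any line was 23, 17 and 13 in these windows. EpiHybrid 92 read 0.384 there, at 109.6% of Col-wt. In the next 500 bp, from 22237451, epiHybrid 193 fell to 0.117 and epiHybrid 232 to 0.193, with differences from the mid-parent value of -0.0733 and -0.0351, whereas epiHybrid 150 at 0.255 was above it by 0.0622.

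**Figure D4:**
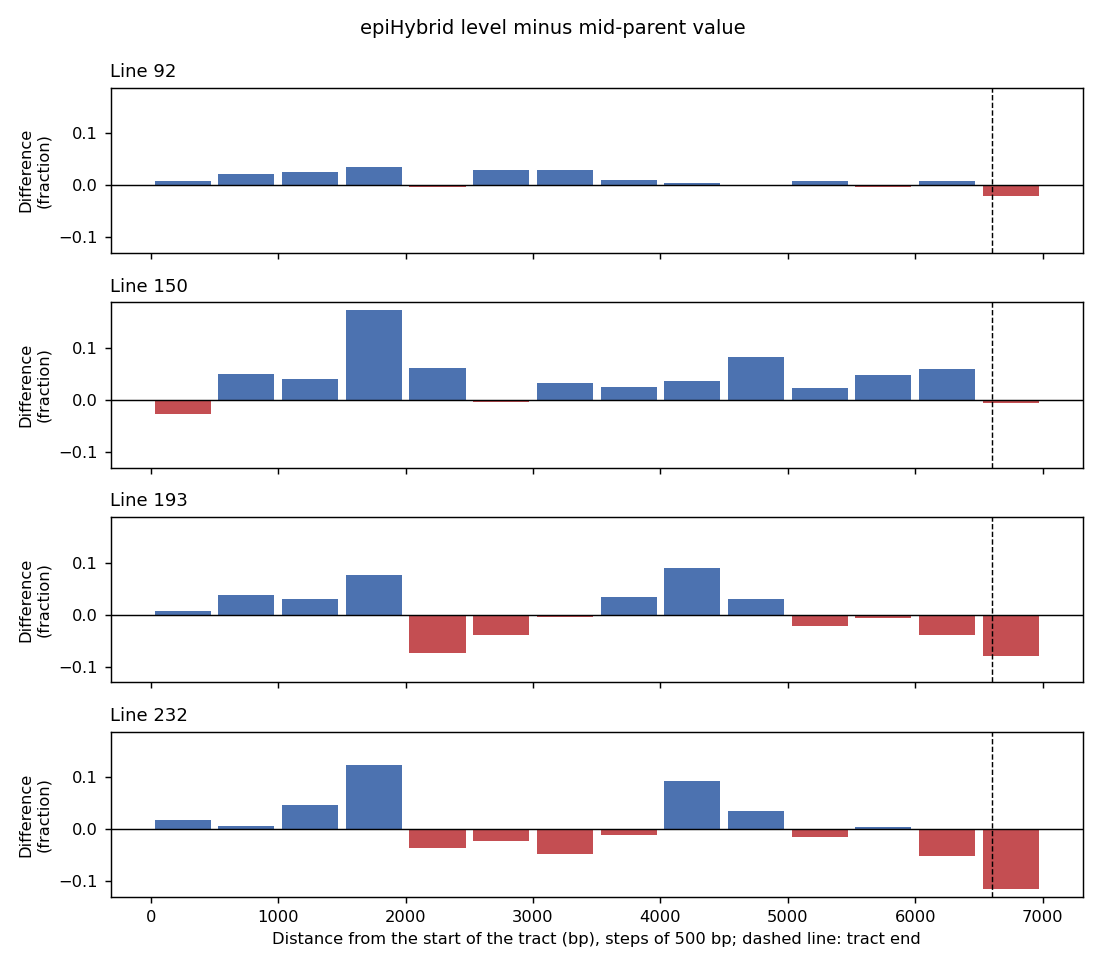
EpiHybrid level minus mid-parent value (fraction, vertical axis) in steps of 500 bp from the tract start (horizontal axis), 1 panel per line; blue bars are above 0 and red bars below, and each bar is the mean of 4 or 5 windows with no replicate error. The step at 1500 bp is above 0 in each line (0.173 in line 150), and the last step, across the tract end, is below 0 in each line, down to -0.116 in line 232.

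At the far end of the methylated stretch the order turned. In the 5 windows from 22241851 to 22242350, which span the tract end and were also singled out after their values were seen, Col-wt read 0.418 and epiRILs 92, 150, 193 and 232 read 0.440, 0.183, 0.222 and 0.286. EpiHybrids 92, 150, 193 and 232 read 0.420, 0.311, 0.220 and 0.224. EpiHybrid 232 was thus below its epiRIL as well as below Col-wt, in 4 of 5 windows, and epiHybrid 193 stood level with its epiRIL and was below both parents in 2 of 5. Against the mid-parent value the differences were -0.00929, 0.0101, -0.100 and -0.128 in lines 92, 150, 193 and 232. In the overlapping windows offset by 50 bp, epiHybrid 232 was below both parents in 4 of 4 and epiHybrid 193 in 3 of 4. A difference between lines here has no replicate and was not tested.

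Between the tract end and AT3G60180 every epiHybrid was below its mid-parent value. Over the 4 windows the differences were -0.0280, -0.0135, -0.0833 and -0.129 in lines 92, 150, 193 and 232, with a mean of -0.0635 ± 0.0532 (SD, n = 4 lines), and the exact sign-flip permutation test gave the smallest possible p of 0.125. Over the whole tract the same mean was above 0, so the direction changed with the stretch of DNA considered. From the end of AT3G60176 to the tract end it was already -0.00746, with 2 of 4 lines above 0. The tract end was set by the level of epiRIL 150, which enters a mid-parent value. No conclusion is therefore drawn from the test or from the change of direction.

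The tract was set beside the pseudogene tracts of the same interval that epiRIL 150 had also lost. Their bounds too were set by the run of lower windows in epiRIL 150, so its low level in them follows from that choice. The one over AT3G62475 to AT3G62490 (chr3:23108851-23115850, 70 windows) read 0.457 in Col-wt, and the one over AT3G62725 (chr3:23203551-23207450, 39 windows) read 0.340. EpiHybrid 150 held 60.6 and 71.9% of Col-wt in these, against 63.9% here, and epiHybrid 193 held 56.2 and 58.9%, against 56.1%. EpiHybrid 232 held 46.7 and 55.5%, against 57.1%. Its position was 0.568 over AT3G62475 to AT3G62490 and 0.475 here. EpiRILs 193 and 232 held less in those tracts (4.58 and 6.21%, then 2.59 and 4.61%) than here (8.40 and 9.66%), where the far end had kept some. These differences between tracts were not tested.

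By the percentages of Col-wt in the other 8 lines, 29 annotated genes with at least 5 windows and a Col-wt level of at least 0.2 were ranked by their likeness to the tract. The 5 nearest were AT3G62725, AT3G62480, AT3G62475, AT3G62490 and AT3G60565, pseudogenes of the same interval on chromosome 3. Their root mean square differences from the tract over the 8 values were 5.78, 6.62, 6.65, 8.22 and 9.79 percentage points, and the sixth gene, AT3G26260, was at 34.3. AT3G60565, the nearest of these to the tract, held 13.2, 18.2 and 2.80% of Col-wt in epiRILs 150, 193 and 232 and 80.5, 68.5 and 60.4% in their epiHybrids.

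**Figure D5:**
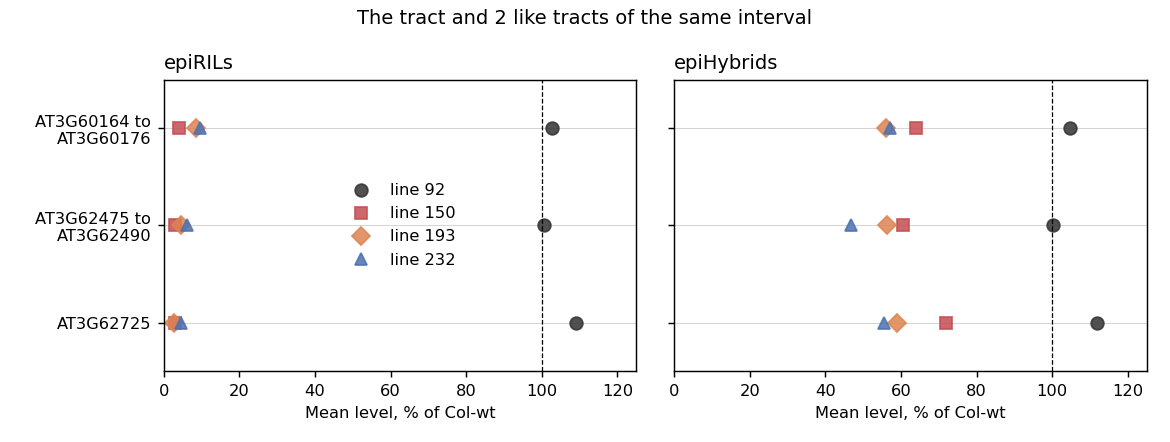
Mean level as a percentage of Col-wt (horizontal axis) in the AT3G60164 to AT3G60176 tract and the tracts over AT3G62475 to AT3G62490 and AT3G62725 (vertical axis), for the epiRILs on the left and the epiHybrids on the right; each symbol is 1 line and the dashed line marks 100%. In each tract line 92 lies at or above 100%, epiRILs 150, 193 and 232 lie under 10%, and their epiHybrids lie between 46.7 and 71.9%. The bounds of each tract were set by the loss in epiRIL 150.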

How the data were processed

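Per the submitters' processing notes, cutadapt, BS-Seeker2 and Bowtie2 were used with the build TAIR10; versions and settings are not given in the sources used here. About 5000 ng of DNA per sample was treated, per the labels. The authors deposited a methylation level as a fraction per 100 bp window and line, with libraries and cytosine contexts already combined, and a number of cytosines per window. The level is missing where that number is 0. The number was taken as a count of cytosines and not as a read depth, which is unknown. The authors' deposited mid-parent fraction is the mean of Col-wt and the epiRIL: recomputed hybrid differences matched the authors' deposited table within 5.6e-16. The 8 deposited columns of mid-parent values and log2 ratios were not used.

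Windows with a level in all 9 lines (39236 of 43887) were thinned to every second one (19614). Means are unweighted. Genes came by position from RefSeq (TAIR10.1) and windows count for a gene when wholly inside it. Runs joined windows within 100 bp. Positions are given where the epiRIL is under 75% of Col-wt. Lines were compared by exact sign-flip permutation, two-sided; functions were tested on simulated data. The members, lists and stretches were chosen with earlier results of these data known; genes are named by the ranking stated in the text. Python 3.11.15, pandas 2.3.3, numpy 2.4.6, scipy 1.17.1 and matplotlib 3.10.9 were used.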

Additional observations from a re-analysis of the deposited data

Results flagged for a closer look

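In 16 screens, each for 1 of the 4 epiRILs or 4 epiHybrids lying far from the other 3 in a stretch, 8 values stood apart, and each belonged to line 92. The tract was chosen because other epiRILs had lost methylation there, so an epiRIL that kept it had to stand apart, and the count cannot be read against the 1 in 20 groups that chance marks. The stretches also share windows and lines. The mean level of epiRIL 92 stood apart over the whole tract (0.378), AT3G60164 (0.357), AT3G60170 (0.330), the stretch between AT3G60164 and AT3G60176 (0.384) and AT3G60176 (0.385). The mean level of epiHybrid 92 stood apart over the whole tract (0.386), AT3G60164 (0.377) and AT3G60170 (0.345). From the end of AT3G60176 to AT3G60180, where epiRILs 193 and 232 kept part of the methylation, no line stood apart.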

How the results depend on the processing

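No paired analysis was possible because the table holds 1 column per line, its libraries combined, so that libraries cannot be paired by replicate number (epiHybrids were set against their own parents throughout); for the same reason no library could be left out. The comparison with sequence contexts was not run, as no genome was used here. The mean difference of the epiHybrids from the mid-parent value ranged from 0.00932 to 0.0216 when each line was left out in turn, and that from the epiRIL from 0.119 to 0.190. Both stayed above 0 under every alternative, and the p of the former could not pass 0.05. With the tract ended at 22241250, the level of epiRIL 193 was 0.0139 (3.78% of Col-wt) and that of epiRIL 232 was 0.0156 (4.26%); these leave out the part they had kept. With background subtracted, epiRIL 150 read 0.00869 (2.41%), and the levels of epiRILs 150, 193 and 232 over AT3G60170 and AT3G60176 also fell by over 1.5 times (8 of 58 values). With limits 1.5 times as large, epiHybrids 150, 193 and 232 had 0, 2 and 1 windows lower than Col-wt, those above the mid-parent value 1 in line 193 and 3 in line 232, and those below it 0 in both. A minimum of 10 cytosines moved none of the 82 values recomputed by over 1.5 times, nor did weighting by cytosines or the offset windows move any of the 58 recomputed under each. At the far end of the methylated stretch, an alternative added after the values were seen turned the difference of epiHybrid 150 from the mid-parent value from 0.0101 to -0.000571 (offset windows). Levels under about 0.01 lie within the range of weakly methylated windows, and differences of single windows under 0.1 are within the spread between lines that both kept the tract.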
